A study of Oryza sativa with 8 samples.

Results

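The flag leaf transcriptome of rice plants labelled GSK2-RNAi was set against that of the wild type, both in the cultivar ZH11, over every locus with enough signal to be tested. The comparison used 5 of the 8 libraries of the series: 3 labelled GSK2-RNAi, a label that names RNA interference against GSK2, and 2 of the wild type, numbered 1 and 3. The other 3 libraries, labelled GSK2-RNAi oswrky53 (the same label with a mutation of WRKY53 added), entered the estimate of spread. The titles of all 8 libraries carry the tag CK, which the titles do not explain. Transcript values were summed per locus, and 25325 of 32166 loci had at least 10 normalized counts in at least 2 libraries and were tested. The sample labels give heading as the stage of harvest, whereas the series text gives booting. The labels name neither the promoter of the construct nor the number of transformed lines, and nothing says whether the libraries of a genotype are of separate plants, so each p-value speaks only to variation among these libraries.

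Brassinosteroids are steroid hormones that promote cell elongation, a wide leaf angle and large grains in rice. The hormone is bound at the cell surface by the receptor kinase BRI1 with its partner BAK1. GSK2, a rice kinase of the family of Arabidopsis BIN2, acts further down: it phosphorylates transcription factors such as BZR1, DLT and WRKY53 and holds them back until the hormone signal switches the kinase off. Brassinosteroid signalling also lowers the synthesis of the hormone through feedback on its biosynthetic genes, among them DWARF4, D2 and DWARF.

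The signal at the targeted locus was higher, not lower, in the libraries that carry the RNA interference label. GSK2 (Os05g0207500), on chromosome 5 and with 1 transcript row in the table, was at 795, 741 and 819.6 normalized counts in the libraries labelled GSK2-RNAi, against 105 and 98.5 in the wild type. All 3 labelled libraries lay above both wild type libraries, with a log2 fold change (computed on log2 of the value plus 1, as throughout) of 2.94 ± 0.17 (SE, limma adjusted p = 0.000107). Under the label GSK2-RNAi oswrky53 the values were 182, 219 and 155. The level goes against the label. The table does not separate reads of an RNA interference construct from those of the plant's own gene, and whether construct reads count toward this locus was not tested. The group is therefore called by its label throughout, and no direction given here stands for the effect of less or more GSK2 transcript. WRKY53 (Os05g0343400), the transcription factor named in the third genotype, was at 7396, 7843 and 8559.6 normalized counts in the libraries labelled GSK2-RNAi, against 3992 and 3209 in the wild type. The groups did not overlap, and WRKY53 rose by 1.15 ± 0.26 (SE, limma adjusted p = 0.0152), a call that did not hold without wild type replicate 3 (0.0821). Its name could not be checked against the reference table.

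The leaf label matched the mesophyll markers, while some markers of other tissues were also detected. The 6 mesophyll markers, which include the small subunits of Rubisco, Rubisco activase and 2 light-harvesting proteins, summed to between 609063 and 760142 normalized counts where the label was GSK2-RNAi and between 1360050 and 1545260 in the wild type. Of these 6 markers 2 were called lower, RBCS-A and RBCS-C, and 0 higher. In bulk leaf RNA, fewer cells of a type and less RNA per cell cannot be told apart. The 12 markers of floral organs and panicle summed to between 416 and 610.0 normalized counts where the label was GSK2-RNAi. In the wild type they summed to between 257 and 565, with MADS7 at 0 in all 5 libraries. MADS16 (255 to 371 against 178 and 332) and MADS1 (75.7 to 215 against 42.7 and 197) made up most of these sums. Pollen and anther markers (6 genes) summed to between 345 and 395 against between 427 and 459, and markers of dividing cells (8 genes) to between 382 and 468 against between 309 and 472. The 2 root markers summed to between 448 and 639 against between 480 and 563. Of all these other markers 1 of the 15 tested was called, the tapetum regulator TDR, which fell by 1.48 (limma adjusted p = 0.0127, and 0.0763 without wild type replicate 1). The values of a library, in units of 1e6 normalized counts, summed to between 20.9 and 21.7 where the label was GSK2-RNAi and to 27.7 and 28.0 in the wild type, and the 100 most abundant loci held between 21.3% and 22.6% of the sum against 29.7% and 31.7%. The part of these differences in the results below was not tested.

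A large share of the leaf transcriptome differed between the genotypes. Of 25325 loci 6290 were called at a limma adjusted p under 0.05, or 24.8%; 3364 of them, 13.3% of all loci, were higher in the libraries labelled GSK2-RNAi, and 2926, or 11.6%, were lower. At an unadjusted p under 0.05, 9675 loci passed, or 38.2%. The values of the groups did not overlap at any of the called loci, nor at 55.3% of all loci tested. Among the called loci the rises were larger than the falls. A change of over 2-fold was seen at 2192 loci called higher and 1615 called lower, one of over 4-fold at 1107 and 282, and one of over 8-fold at 568 and 63. The median log2 fold change was 1.35 among loci called higher and -1.07 among those called lower, with 0.02 over all loci tested. The filter did not treat the directions alike. A locus near 0 in the wild type could pass on the more numerous libraries with the construct label. A locus near 0 in all of those needed both wild type libraries. With the filter at 50, 3024 loci were called higher and 2879 lower, and with no filter 3323 and 2770. The part of the filter in the larger rises was not tested.

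**Figure D1:**
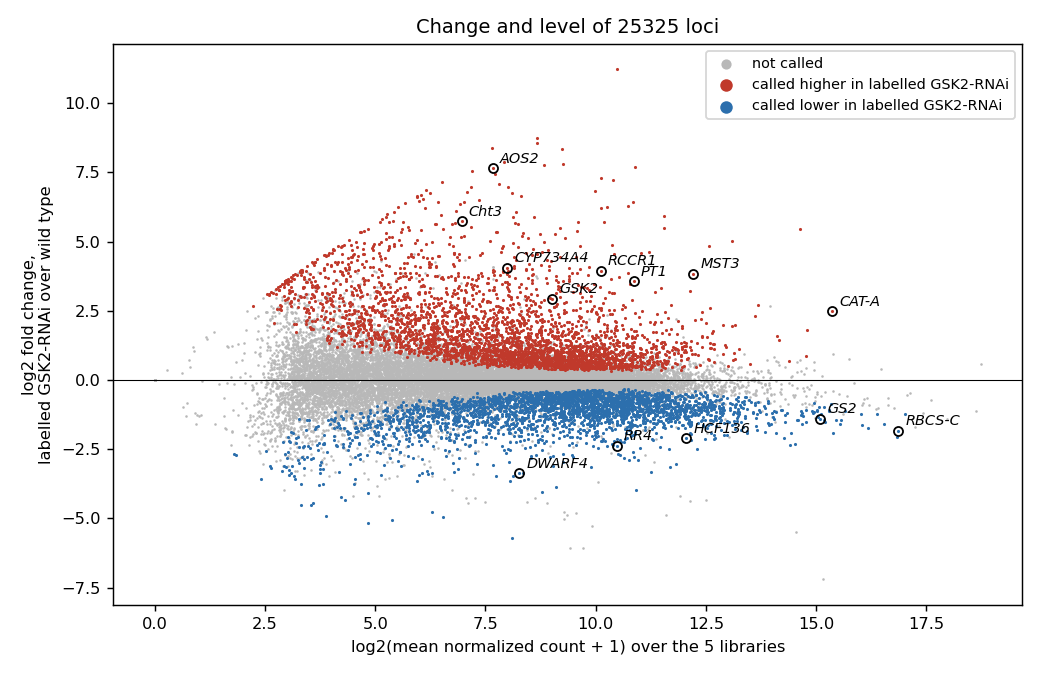
Log2 fold change, libraries labelled GSK2-RNAi over wild type, (vertical axis) against log2 of the mean normalized count plus 1 over the 5 libraries (horizontal axis), 1 point per locus, with called loci in red (3364 higher) or blue (2926 lower) and 13 genes circled. Large rises are more numerous than large falls, and the blue points reach farther to the right.

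Direction went with abundance in the values as deposited. The loci were divided into 10 equal groups by mean level. In the lowest group 185 were called higher and 70 lower in the libraries labelled GSK2-RNAi. In the highest group the balance was turned, with 276 called higher and 754 lower and a median log2 fold change of -0.25. This turn depended on the scaling. With every library scaled to the same total, the most abundant group had 671 loci called higher and 438 lower, and with quantile normalization it had 496 and 451. Equal totals moved the median of all loci to 0.40 and gave 8014 higher of 9478 called loci (84.6%, against 53.5% as deposited), so under that scaling directions are relative to a shifted centre.

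**Figure D2:**
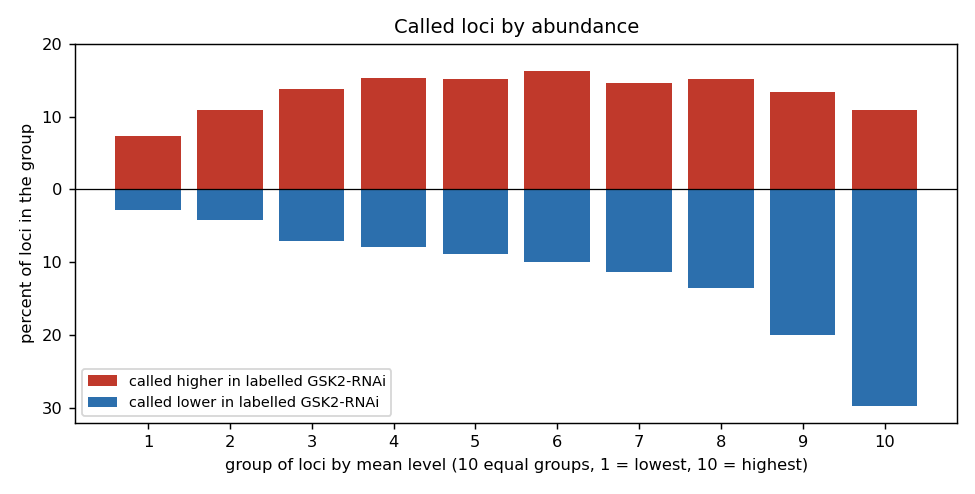
Percent of loci called higher (red, above the line) and lower (blue, below the line) in the libraries labelled GSK2-RNAi in each of 10 equal groups of the 25325 loci, ordered by mean normalized count over the 5 libraries. The most abundant group had 276 loci called higher and 754 called lower, and the least abundant group 185 and 70.

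Loci were then grouped by role into 32 lists with 469 tested members, paired by hand with names and checked against a reference table. Each list is given by its counts and its median, to be read against the values over all loci. These were 13.3% called higher, 11.6% called lower and a median of 0.02. Lists of abundant genes are better read against the most abundant of the 10 groups, at 10.9%, 29.8% and -0.25. The lists were chosen with earlier results of these data known. Where 0 members were called in a direction, an unadjusted limma p under 0.05 also gave 0 in that direction, except for 2 starch genes higher and, on the lower side, 2 metal and ion genes, 2 jasmonate genes, 1 antenna protein and 1 cell wall gene. Calls given with a fold change or values per library held when each of the 5 libraries was left out in turn, except where the library is named; members only listed as called refer to the fit with all libraries. Leaving out 1 library also took the count over all loci to between 3677 and 4705.

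**Figure D3:**
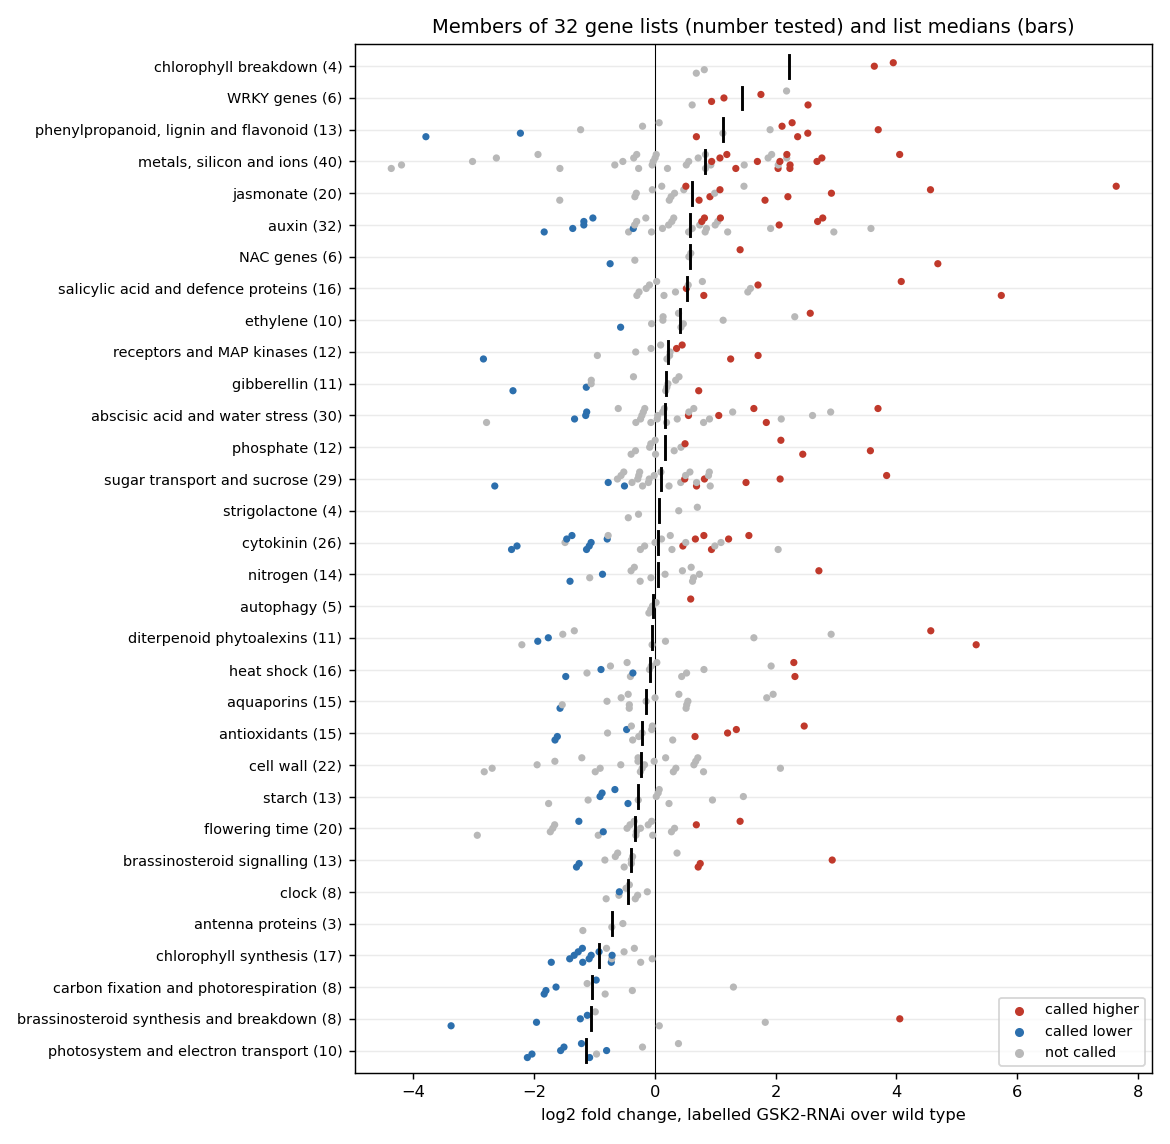
Log2 fold change, libraries labelled GSK2-RNAi over wild type, for each tested member (points) of 32 gene lists, with the list median as a black bar; red points were called higher, blue lower and grey were not called. Medians are lowest for the photosystem, brassinosteroid synthesis, carbon fixation and chlorophyll synthesis lists. They are highest for the chlorophyll breakdown, WRKY, phenylpropanoid, metal and jasmonate lists. Members of the metal list range from -4.36 to 4.05.

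In brassinosteroid synthesis 4 of 6 genes that make the hormone were called lower, and of 2 that inactivate it 1 was called higher. Over these 8 genes the median was -1.05 in the libraries labelled GSK2-RNAi relative to the wild type. DWARF4 (Os03g0227700), a hydroxylase of an early step, was at 73.5, 43.9 and 49.6 normalized counts in the libraries labelled GSK2-RNAi, against 1053 and 311 in the wild type. The wild type libraries differed from each other by more than the labelled ones did, yet the groups lay far apart, and DWARF4 changed by -3.37 ± 0.50 (SE, limma adjusted p = 0.00275). D2 (Os01g0197100), a cytochrome P450 of the same pathway, was at 136, 116 and 80.4 normalized counts in the libraries labelled GSK2-RNAi, against 390.1 and 460.3 in the wild type, a change of -1.96 ± 0.38 (SE, limma adjusted p = 0.00837). CYP90A4 (Os12g0139300), another P450 of the pathway with a close copy on chromosome 11, CYP90A3, was at 133, 152 and 181 normalized counts in the libraries labelled GSK2-RNAi, against 325 and 346 in the wild type. It changed by -1.12 ± 0.18 (SE, limma adjusted p = 0.00364), and the split of reads between the copies is uncertain. DWARF, which makes the active end product, was the other member called lower. CYP90A3 (-0.99, limma adjusted p = 0.0945) and D11 (0.07, limma adjusted p = 0.835), a further P450 of the pathway, were not called. On the side of breakdown, CYP734A4 (Os06g0600400), whose product hydroxylates brassinosteroids to inactive forms, was at 209.8, 665 and 347 normalized counts in the libraries labelled GSK2-RNAi, against 20.2 and 21.8 in the wild type. Replicate 2 was the highest, and even the lowest labelled library was far above both wild type libraries, a rise of 4.06 ± 0.59 (SE, limma adjusted p = 0.0026). Libraries labelled GSK2-RNAi oswrky53 lay between the other groups, at 51.5, 30.5 and 113.

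Signalling genes moved less and in both directions. Of 13 tested, 3 were called higher, GSK2 itself among them, and 2 lower, with a median of -0.39. Under equal totals 4 were called higher and 2 lower, with a median of -0.008. With quantile normalization 3 were called higher and 4 lower, with a median of -0.47. The receptor BRI1 (Os01g0718300) was at 104, 90.5 and 92 normalized counts in the libraries labelled GSK2-RNAi, against 215 and 258 in the wild type. All labelled libraries were below the wild type, and BRI1 changed by -1.30 ± 0.24 (SE, limma adjusted p = 0.00644). A kinase of the same family as GSK2, GSK4 (Os06g0547900), was at 354, 379 and 383 normalized counts in the libraries labelled GSK2-RNAi, against 826 and 952 in the wild type, and so went the other way from GSK2, by -1.25 ± 0.14 (SE, limma adjusted p = 0.00104). BZR2 (Os01g0203000), of the transcription factor family that GSK2 restrains, was at 772, 769.6 and 829.6 normalized counts in the libraries labelled GSK2-RNAi, against 464 and 496 in the wild type. It rose by 0.72 ± 0.12 (SE, limma adjusted p = 0.00449), and its relative BZR1 was also called higher. BAK1, the co-receptor, was not called (limma adjusted p = 0.059).

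**Figure D4:**
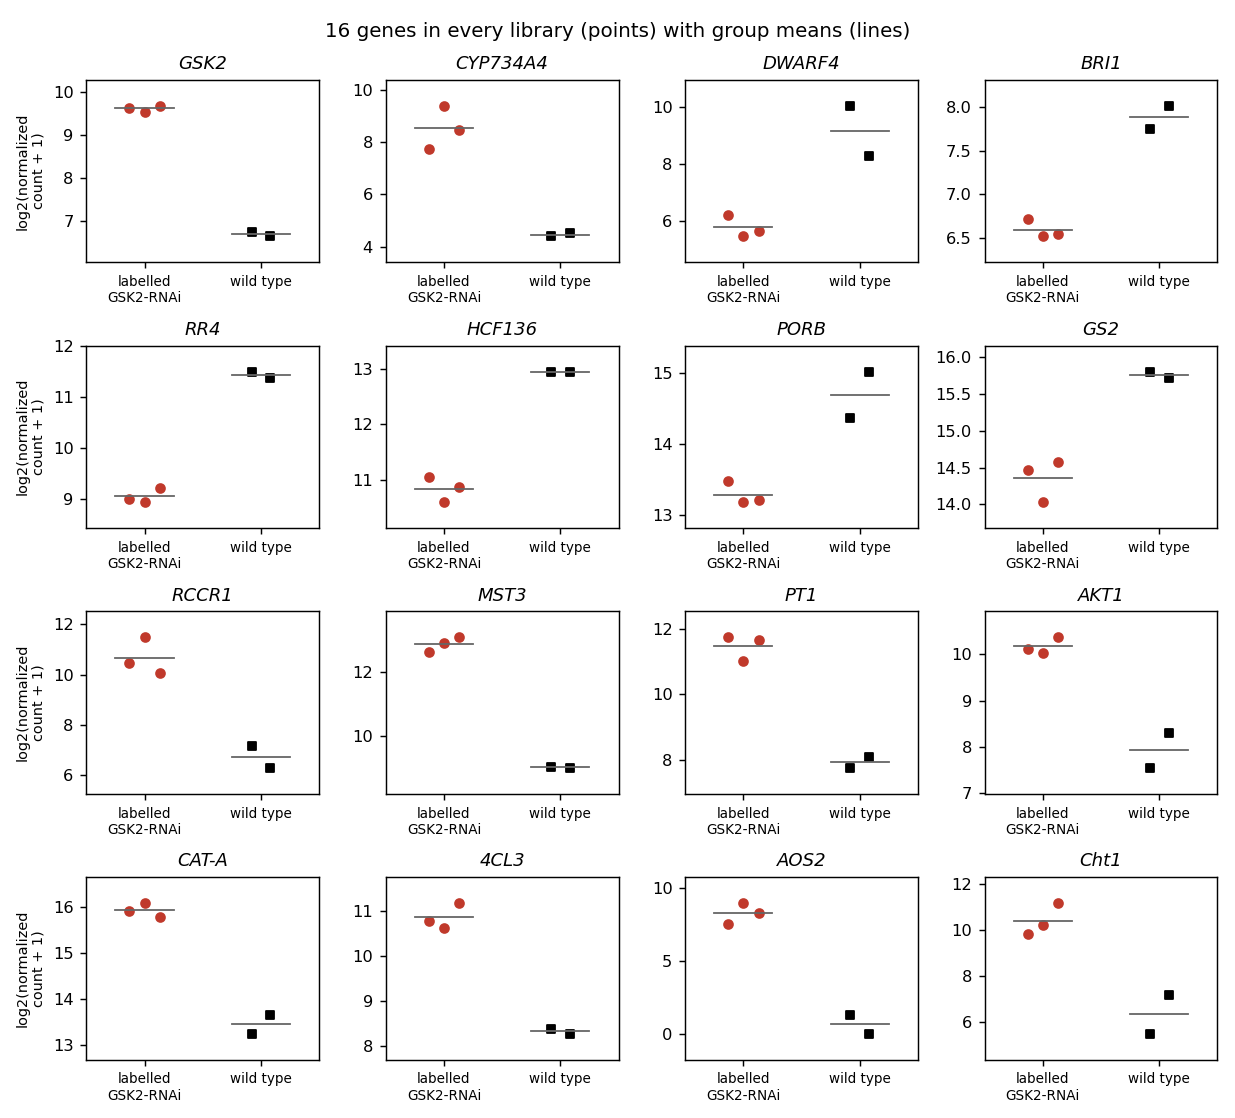
Log2 of the normalized count plus 1 (vertical axes, a separate range in each panel) of 16 genes in the 3 libraries labelled GSK2-RNAi (red circles, left) and the 2 wild type libraries (black squares, right), with the group mean of the log2 values as a line. The 16 genes were picked among called loci, none of which had overlapping groups, so the separation in every panel was set by that choice. Groups did not overlap at 55.3% of all loci tested. GSK2 is higher and RR4 lower in the libraries labelled GSK2-RNAi.

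Most photosystem and electron transport genes tested were called lower. Of 10, 7 were called lower and 0 higher, with a median of -1.15; with quantile normalization 5 were called lower and 1 higher, with a median of -0.48. HCF136 (Os06g0729650), an assembly factor of photosystem II, was at 2104, 1548 and 1865 normalized counts in the libraries labelled GSK2-RNAi, against 7854 and 7902 in the wild type. The wild type libraries were nearly equal and the labelled ones well below them, a change of -2.11 ± 0.28 (SE, limma adjusted p = 0.00196). PSB28 (Os01g0938100), another photosystem II protein, was at 737, 669 and 993 normalized counts in the libraries labelled GSK2-RNAi, against 3695 and 2825 in the wild type, a change of -2.03 ± 0.30 (SE, limma adjusted p = 0.00275). LFNR1 (Os06g0107700), a leaf ferredoxin reductase that passes electrons to NADP, was at 8469, 7449 and 10162 normalized counts in the libraries labelled GSK2-RNAi, against 28536 and 22615 in the wild type, and changed by -1.56 ± 0.24 (SE, limma adjusted p = 0.00301). Plastocyanin (PETE), the Rieske protein (petC), PSBW and the thylakoid factor VIPP1 were also called lower, PSBW not with quantile normalization (limma adjusted p = 0.605). PSAH, LIR1 and THF1 were not called, at -0.96, 0.39 and -0.20. The 3 antenna proteins, LHCP, CAB1R and CAB2R, were not called, and their median of -0.71 became 0.36 with quantile normalization. Among them CAB2R (Os01g0600900) was at 128578, 96002 and 98620.0 normalized counts in the libraries labelled GSK2-RNAi, against 87346 and 271398 in the wild type, with one wild type library below all labelled ones.

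Chlorophyll synthesis genes were lower as a group: 11 of 17 were called lower, 0 were called higher, and all 17 fold changes were below 0, with a median of -0.92. DVR (Os03g0351200), the divinyl reductase, was at 587, 606 and 769.6 normalized counts in the libraries labelled GSK2-RNAi, against 2417 and 1881 in the wild type, a change of -1.71 ± 0.16 (SE, limma adjusted p = 0.000611). PORB (Os10g0496900), the light-dependent protochlorophyllide reductase, was at 11360.4, 9276 and 9426 normalized counts in the libraries labelled GSK2-RNAi, against 21114 and 33221 in the wild type. Its lowest wild type value was well above its highest labelled value, and it changed by -1.41 ± 0.25 (SE, limma adjusted p = 0.00586). CHLP (Os02g0744900), which makes the phytol tail of chlorophyll, was at 23154, 19292 and 20129 normalized counts in the libraries labelled GSK2-RNAi, against 44226 and 62157 in the wild type, and changed by -1.33 ± 0.24 (SE, limma adjusted p = 0.00638). PPOX1 (Os01g0286600), protoporphyrinogen oxidase, was at 649.9, 468 and 589 normalized counts in the libraries labelled GSK2-RNAi, against 1232 and 1498 in the wild type, and changed by -1.27 ± 0.22 (SE, limma adjusted p = 0.00557). The magnesium chelatase subunits CHLD and CHLH and the first enzymes of the pathway, GluTR and GSA, were called lower too. GLK1 and GLK2, the transcription factors known for switching on these genes, were not called, at -0.23 and -0.04. The count of 11 became 6 without wild type replicate 3, 7 without GSK2-RNAi replicate 2 and 7 without GSK2-RNAi replicate 3. It became 6 under equal totals and 5 with quantile normalization, where the call of CHLP was lost (limma adjusted p = 0.103) and PORB changed by -0.86.

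Calls among carbon fixation genes were falls and were less certain. Of 8 carbon fixation and photorespiration genes 4 were called lower and 0 higher, with a median of -1.04. Without GSK2-RNAi replicate 1, 2 were called lower and 1 higher. RBCS-C (Os12g0274700), a Rubisco small subunit, was at 62662, 52555 and 60519 normalized counts in the libraries labelled GSK2-RNAi, against 186880.0 and 231265 in the wild type. RBCS-A (Os12g0292400), its near copy on the same chromosome, was at 40198, 32542 and 35798 normalized counts in the libraries labelled GSK2-RNAi, against 87746 and 142866 in the wild type. The groups did not overlap for either, with changes of -1.83 ± 0.45 (SE, limma adjusted p = 0.0201) and -1.64 ± 0.39 (SE, limma adjusted p = 0.0183), and reads may be split between the copies. The call of RBCS-C did not hold without any one of the 5 libraries (adjusted p between 0.0504 and 0.0744) and with quantile normalization (0.213). That of RBCS-A did not hold without GSK2-RNAi replicate 2 (0.0652), GSK2-RNAi replicate 3 (0.0578) or wild type replicate 3 (0.0889) and with quantile normalization (0.138). GDCSH (Os10g0516100), a subunit of the glycine decarboxylase of photorespiration, was at 4915, 4167 and 6299 normalized counts in the libraries labelled GSK2-RNAi, against 17785 and 17457 in the wild type. It changed by -1.80 ± 0.38 (SE, limma adjusted p = 0.0116), a call that did not hold without wild type replicate 1 (0.0547). The count of 4 became 1 or 2 without any one library and 1 with quantile normalization.

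Of 14 nitrogen genes 2 were called lower and 1 higher, with a median of 0.05 that turned to -0.14 with quantile normalization; under equal totals 4 were called higher and 1 lower. Plastid glutamine synthetase, GS2 (Os04g0659100), which captures the ammonium released in photorespiration, was at 22624, 16736 and 24368 normalized counts in the libraries labelled GSK2-RNAi, against 57286 and 53720.4 in the wild type. It changed by -1.40 ± 0.25 (SE, limma adjusted p = 0.00557), and with quantile normalization by -0.68 (limma adjusted p = 0.0708). The call of its partner Fd-GOGAT (-0.87, limma adjusted p = 0.0489) did not hold without GSK2-RNAi replicate 1 (0.122), GSK2-RNAi replicate 2 (0.15), GSK2-RNAi replicate 3 (0.0774) or wild type replicate 1 (0.218). The cytosolic glutamine synthetases GLN1-1 and GLN1-2 were not called. DUR3 (Os10g0580400), a urea transporter, was at 4181, 5074 and 5559 normalized counts in the libraries labelled GSK2-RNAi, against 1627 and 341 in the wild type. It rose by 2.72 ± 0.57 (SE, limma adjusted p = 0.0113), or by 1.59 without wild type replicate 3 (adjusted p = 0.0257).

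The called chlorophyll breakdown genes were higher. Of 4 genes 2 were called higher and 0 lower, with a median of 2.23. RCCR1 (Os10g0389200), the reductase of red chlorophyll catabolites, was at 1404, 2849 and 1055 normalized counts in the libraries labelled GSK2-RNAi, against 139.6 and 77 in the wild type. Replicate 2 was the highest, and all 3 were above the wild type, a rise of 3.95 ± 0.40 (SE, limma adjusted p = 0.000821). SGR (Os09g0532000), which draws magnesium from chlorophyll and marks senescing leaves, was at 1283, 3471 and 1334 normalized counts in the libraries labelled GSK2-RNAi, against 328 and 63.6 in the wild type. It rose by 3.64 ± 0.82 (SE, limma adjusted p = 0.015), and the call did not hold without GSK2-RNAi replicate 2 (0.0519) or wild type replicate 3 (0.0876). NYC1 and NOL, the chlorophyll b reductases, were not called, at 0.69 and 0.82. Of 6 NAC genes, a family with several regulators of senescence, 2 were called higher and 1 lower. NAC45 (Os11g0127600) was at 31.4, 109.5 and 48.6 normalized counts in the libraries labelled GSK2-RNAi, against 1.44 and 0.948 in the wild type, near the floor of the measurement in the wild type. It rose by 4.69 ± 0.61 (SE, limma adjusted p = 0.00172), or by 2.56 with 10 added in place of 1. Of the remaining calls, NAC4 (1.41) did not hold without GSK2-RNAi replicate 1 (0.0564), GSK2-RNAi replicate 2 (0.1), GSK2-RNAi replicate 3 (0.0548), wild type replicate 1 (0.161) or wild type replicate 3 (0.0514), and NAC5 (-0.74) without wild type replicate 1 (0.055).

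Sugar genes were led by a monosaccharide transporter. Of 29 tested, 6 were called higher and 3 lower, with a median of 0.10. MST3 (Os07g0106200), a proton-coupled importer of hexoses, was at 6269.8, 7663 and 8613 normalized counts in the libraries labelled GSK2-RNAi, against 527 and 513 in the wild type. The wild type libraries were nearly equal and the labelled ones more than an order of magnitude above them, a rise of 3.84 ± 0.15 (SE, limma adjusted p = 2.03e-05). Under the label GSK2-RNAi oswrky53 it was at 1207, 1183 and 1358. HXK7 (Os05g0187100), a hexokinase, was at 754, 781 and 803 normalized counts in the libraries labelled GSK2-RNAi, against 146 and 231 in the wild type, a rise of 2.08 ± 0.28 (SE, limma adjusted p = 0.00207). Another hexokinase, HXK6 (Os01g0742500), was at 1336, 1355 and 1562 normalized counts in the libraries labelled GSK2-RNAi, against 2384 and 2444 in the wild type and went down, by -0.77 ± 0.14 (SE, limma adjusted p = 0.00562). TPP1 (Os02g0661100), a trehalose-phosphate phosphatase, was at 8.65, 8.99 and 12.7 normalized counts in the libraries labelled GSK2-RNAi, against 80.8 and 56.9 in the wild type, a change of -2.65 ± 0.48 (SE, limma adjusted p = 0.00592). The sucrose loader SUT1 and the exporter SWEET14 were among the members called higher. The count of 6 rises became 3 without GSK2-RNAi replicate 2 and 3 without GSK2-RNAi replicate 3. The median became 0.08 without wild type replicate 1 and 0.05 without wild type replicate 3. Under equal totals 10 were called higher and 1 lower, with a median of 0.49. The call of HXK6 was lost there (limma adjusted p = 0.0573).

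Of 13 starch genes 4 were called lower, DPE2, SSII-2, AGPS2 and GWD3, by between 0.44 and 0.91 on the log2 scale, and 0 were called higher. DPE2 processes maltose, SSII-2 builds amylopectin, AGPS2 is a subunit of ADP-glucose pyrophosphorylase and GWD3 phosphorylates starch. None of the 4 calls held without wild type replicate 1 (limma adjusted p between 0.119 and 0.213), without GSK2-RNAi replicate 1 or without GSK2-RNAi replicate 2, and 1 held without GSK2-RNAi replicate 3. None held under equal totals, where 2 other members were called higher.

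The called mineral transport genes were higher, and most members were not called. Of 40 genes for metals, silicon and ions 13 were called higher and 0 lower in the libraries labelled GSK2-RNAi, with a median of 0.84, and of 12 phosphate genes 4 were called higher and 0 lower, with a median of 0.17. PT1 (Os03g0150600), a phosphate importer, was at 3449, 2102 and 3238 normalized counts in the libraries labelled GSK2-RNAi, against 213 and 270.1 in the wild type. Every labelled library was several times above both wild type libraries, a rise of 3.57 ± 0.25 (SE, limma adjusted p = 0.000231). PT8 (Os10g0444700), a phosphate importer of high affinity, was at 3786, 2916 and 5658 normalized counts in the libraries labelled GSK2-RNAi, against 976 and 890.3 in the wild type, a rise of 2.09 ± 0.24 (SE, limma adjusted p = 0.00119). PT2 and PT4, of the same family, were not called, at 0.01 and -0.08. AKT1 (Os01g0648000), an inward potassium channel, was at 1112, 1039 and 1314 normalized counts in the libraries labelled GSK2-RNAi, against 186 and 316 in the wild type, a rise of 2.24 ± 0.26 (SE, limma adjusted p = 0.0013). ZIP2 (Os03g0411800), of the zinc and iron transporter family, was at 1371, 1289 and 1957 normalized counts in the libraries labelled GSK2-RNAi, against 375 and 292 in the wild type, a rise of 2.19 ± 0.29 (SE, limma adjusted p = 0.00182). Further carriers of divalent metals, ZIP6 and NRAMP3, rose by 1.08 ± 0.17 (SE, limma adjusted p = 0.00319) and 1.19 ± 0.20 (SE, limma adjusted p = 0.00416). The potassium importer HAK5, the sodium transporters HKT2;1 and HKT1;4, the metal pumps HMA2, HMA5 and HMA9, the metallothionein MT2B and NAAT1, an enzyme of iron chelator synthesis, were also called higher.

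VIT2 (Os09g0396900), which loads iron into the vacuole, was at 217, 513 and 593 normalized counts in the libraries labelled GSK2-RNAi, against 87.6 and 5.72 in the wild type. The wild type libraries were far apart, and the rise of 4.05 ± 1.18 (SE, limma adjusted p = 0.0385) did not hold without GSK2-RNAi replicate 1 (0.0558), GSK2-RNAi replicate 2 (0.106), GSK2-RNAi replicate 3 (0.102) or wild type replicate 3 (0.224), with a log2 fold change of 2.19 in the last case. The phosphate exporter PHO1-2 and the phosphate sensor SPX4 were called at limma adjusted p = 0.0402 and 0.0451. PHO1-2 did not hold without any one of the 5 libraries (adjusted p between 0.0502 and 0.208) and SPX4 without GSK2-RNAi replicate 1 (0.0869), GSK2-RNAi replicate 2 (0.112), GSK2-RNAi replicate 3 (0.113) or wild type replicate 3 (0.238). Some metal genes with large negative fold changes were not called, among them NRAMP1 at -4.36 and YSL2 at -4.19. The 13 rises became 5 without GSK2-RNAi replicate 2, 6 without GSK2-RNAi replicate 3 and 6 without wild type replicate 3, and the median of 0.84 became 0.32 in the last case. The count of 0 lower became 1 without GSK2-RNAi replicate 1 and with quantile normalization. The 4 phosphate rises became 2 without any one of these 3 libraries or without GSK2-RNAi replicate 1.

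Antioxidant enzymes moved in both directions. Of 15 tested, 4 were called higher and 3 lower, with a median of -0.21 (0.18 under equal totals, 0.05 with quantile normalization). CAT-A (Os02g0115700), a catalase, was at 62058, 69466 and 56269 normalized counts in the libraries labelled GSK2-RNAi, against 9724 and 12954 in the wild type. It was among the most abundant transcripts of the labelled libraries, all of which were far above the wild type, a rise of 2.47 ± 0.28 (SE, limma adjusted p = 0.00122). With the label GSK2-RNAi oswrky53 it was at 17095, 30549 and 22168. APX7 (Os04g0434800), an ascorbate peroxidase of the plastid stroma, was at 487, 521 and 551 normalized counts in the libraries labelled GSK2-RNAi, against 254 and 162 in the wild type, a rise of 1.35 ± 0.21 (SE, limma adjusted p = 0.00336). APX8 (Os02g0553200), the thylakoid-bound form of the same enzyme, was at 5559, 4385 and 4058 normalized counts in the libraries labelled GSK2-RNAi, against 10859.6 and 18443 in the wild type and moved the opposite way, by -1.61 ± 0.31 (SE, limma adjusted p = 0.00787). sodCp (Os08g0561700), the plastid copper and zinc superoxide dismutase, was at 1043, 931 and 1179 normalized counts in the libraries labelled GSK2-RNAi, against 3150.3 and 3434 in the wild type, a change of -1.65 ± 0.18 (SE, limma adjusted p = 0.00117). Cytosolic APX1 and the second catalase, CAT-B, were also called higher, while the cytosolic dismutases SODCC.1 and SODCC.2 were not called. The count of 4 rises became 2 without GSK2-RNAi replicate 2.

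Cytokinin genes were called in both directions. Of 26 tested, 6 were called higher and 8 lower, with a median of 0.06 that turned to -0.01 with quantile normalization. Type-A response regulators, which are induced by the hormone and damp its signal, were lower: 5 of 6 were called lower and 0 higher. RR4 (Os01g0952500) was at 516, 493 and 594 normalized counts in the libraries labelled GSK2-RNAi, against 2888 and 2637 in the wild type, a change of -2.37 ± 0.17 (SE, limma adjusted p = 0.000257). RR10 (Os12g0139400) was at 353, 306 and 376 normalized counts in the libraries labelled GSK2-RNAi, against 1485 and 1890.5 in the wild type, a change of -2.28 ± 0.16 (SE, limma adjusted p = 0.000253), with reads that may be shared with its near copy RR9 on chromosome 11. RR2 (Os02g0557800) was at 2593, 2346 and 2964 normalized counts in the libraries labelled GSK2-RNAi, against 4969 and 5966 in the wild type, a change of -1.05 ± 0.17 (SE, limma adjusted p = 0.00371). Type-B regulators, the transcription factors that carry the signal to its targets, had 3 tested members, RR21, RR22 and RR23, called higher by between 0.47 and 0.94. RR21 did not hold without any one of the 5 libraries (adjusted p between 0.0519 and 0.131), RR22 without GSK2-RNAi replicate 1 (0.0604), GSK2-RNAi replicate 2 (0.0798), wild type replicate 1 (0.113) or wild type replicate 3 (0.0572) and RR23 without wild type replicate 1 (0.0797). Of the cytokinin oxidases, which break the hormone down, CKX9 and CKX11 were called higher and CKX4 lower among 6 tested. CKX9 (Os05g0374200) was at 152, 173 and 171 normalized counts in the libraries labelled GSK2-RNAi, against 59.9 and 82.4 in the wild type, a rise of 1.22 ± 0.21 (SE, limma adjusted p = 0.00487). Of the 3 receptors tested, HK3 was called higher and HK4 lower. The 6 rises became 2 without wild type replicate 1 and 3 without wild type replicate 3. The 8 falls became 5 without wild type replicate 1, 5 without GSK2-RNAi replicate 1, 5 without GSK2-RNAi replicate 2 and 5 under equal totals.

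Auxin genes were divided. Of 32 tested, 6 were called higher and 6 lower, with a median of 0.59. Among the 21 IAA proteins, repressors that auxin removes, 4 were called in each direction. IAA16 (Os05g0186900) was at 160.0, 131 and 117 normalized counts in the libraries labelled GSK2-RNAi, against 13.7 and 25.6 in the wild type, a rise of 2.78 ± 0.37 (SE, limma adjusted p = 0.00194). IAA6 (Os01g0741900) was at 600.1, 786 and 311 normalized counts in the libraries labelled GSK2-RNAi, against 87.9 and 73.9 in the wild type, with the labelled libraries spread but all above the wild type, a rise of 2.70 ± 0.47 (SE, limma adjusted p = 0.00525). IAA1 (Os01g0178500) was at 1106, 796 and 825 normalized counts in the libraries labelled GSK2-RNAi, against 516 and 500.3 in the wild type, a rise of 0.82 ± 0.17 (SE, limma adjusted p = 0.00963). ARF1 (Os01g0236300), an auxin response factor, was at 249, 261 and 266 normalized counts in the libraries labelled GSK2-RNAi, against 534 and 641 in the wild type, a change of -1.17 ± 0.15 (SE, limma adjusted p = 0.00172). The 6 rises became 3 without GSK2-RNAi replicate 2 or 3 and 14 under equal totals. The 6 falls became 2 or 3 without any one library and 2 under equal totals.

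In the gibberellin list 1 of 11 was called higher and 2 lower, with a median of 0.18 that turned to -0.10 with quantile normalization. CYP714B2 (Os03g0332100), which turns the hormone into forms of low activity, was at 146, 132 and 139 normalized counts in the libraries labelled GSK2-RNAi, against 478 and 1059.7 in the wild type, a change of -2.35 ± 0.39 (SE, limma adjusted p = 0.00423). The receptor gid1 (Os05g0407500) was at 2491, 2466 and 2380.1 normalized counts in the libraries labelled GSK2-RNAi, against 1391 and 1567 in the wild type, a rise of 0.73 ± 0.12 (SE, limma adjusted p = 0.00423). The synthesis gene sd1, known as the semidwarf gene of the Green Revolution, was called lower (-1.13), a call that did not hold without wild type replicate 1 (0.0982) or wild type replicate 3 (0.138); without GSK2-RNAi replicate 3, where it was at 803 normalized counts, the change was -0.74. Of 10 ethylene genes 1 was called in each direction, the synthase ACS2 (2.57) and the receptor ERS2 (-0.57). The call of ACS2 did not hold without GSK2-RNAi replicate 1 (0.0904), GSK2-RNAi replicate 3 (0.0858), wild type replicate 1 (0.108) or wild type replicate 3 (0.11) and that of ERS2 without GSK2-RNAi replicate 2 (0.0651), GSK2-RNAi replicate 3 (0.0534) or wild type replicate 1 (0.0958). Under equal totals 5 ethylene genes were called higher and 0 lower, with a median of 0.80. None of the 4 strigolactone genes was called by limma, and 1 was called higher under equal totals and with quantile normalization.

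Abscisic acid and water stress genes, 30 in all, had 5 called higher and 3 lower, with a median of 0.18. PP2C68 (Os09g0325700), of the phosphatase family that restrains the hormone's signal, was at 1614, 1736 and 1509 normalized counts in the libraries labelled GSK2-RNAi, against 665 and 403 in the wild type, a rise of 1.64 ± 0.20 (SE, limma adjusted p = 0.00147). NCED3 (Os03g0645900), which makes the precursor of the hormone, was at 205, 112 and 92.9 normalized counts in the libraries labelled GSK2-RNAi, against 29.5 and 41.7 in the wild type. It rose by 1.85 ± 0.38 (SE, limma adjusted p = 0.0106), a call that did not hold without wild type replicate 1 (0.0662). ABA8OX2 and ABA8OX3, which break the hormone down, were called lower, as was ZEP, an earlier enzyme of its synthesis. HOX24 (3.70) and PP2C30 (1.06) were called higher. HOX24 lost its call without GSK2-RNAi replicate 1 (0.0687), GSK2-RNAi replicate 2 (0.0754) or wild type replicate 3 (0.127), and PP2C30 without GSK2-RNAi replicate 1 (0.0779), GSK2-RNAi replicate 2 (0.0859) or wild type replicate 3 (0.16), with a change of 0.63 in the last case. The 5 rises became 2 without wild type replicate 3, 3 without GSK2-RNAi replicate 1, 2 without GSK2-RNAi replicate 2 and 15 under equal totals. The 3 falls became 0 without GSK2-RNAi replicate 1, 0 without GSK2-RNAi replicate 2, 1 without GSK2-RNAi replicate 3 and 0 under equal totals.

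The called jasmonate genes were all higher. Of 20 tested, 9 were called higher and 0 lower, with a median of 0.62, and the count stayed between 6 and 9 without any one library. AOS2 (Os03g0225900), an allene oxide synthase of jasmonate synthesis, was at 189, 498 and 318 normalized counts in the libraries labelled GSK2-RNAi, against 1.44 and 0 in the wild type. It was at or near 0 in the wild type, and the fitted rise of 7.64 ± 1.32 (SE, limma adjusted p = 0.00506) depends on the value added before taking logs, becoming 4.91 with 10 in place of 1. AOS1, another gene for this step, was not called, at -0.04. CM-LOX1 (Os08g0508800), a lipoxygenase, was at 2320.2, 1975 and 2323 normalized counts in the libraries labelled GSK2-RNAi, against 82 and 103 in the wild type. The labelled libraries were close together and more than an order of magnitude above the wild type, a rise of 4.57 ± 0.99 (SE, limma adjusted p = 0.0125), a call that did not hold without wild type replicate 1 (0.0641). Libraries labelled GSK2-RNAi oswrky53 were far apart from each other, at 2997, 266 and 183. Its neighbour CM-LOX2 was called higher too. The TIFY repressors, which jasmonate both induces and removes, had 4 of 8 called higher and 0 lower. TIFY11D (Os10g0392400) was at 114, 76.9 and 61.7 normalized counts in the libraries labelled GSK2-RNAi, against 10.2 and 9.53 in the wild type, a rise of 2.92 ± 0.33 (SE, limma adjusted p = 0.00117). TIFY11B (Os03g0181100) was at 54.1, 73.4 and 78.8 normalized counts in the libraries labelled GSK2-RNAi, against 14.5 and 13.4 in the wild type, a rise of 2.20 ± 0.40 (SE, limma adjusted p = 0.00608), and TIFY10A (Os03g0402800) rose by 1.08 ± 0.19 (SE, limma adjusted p = 0.00554). Under equal totals 15 jasmonate genes were called higher.

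Defence genes of the salicylic acid list had 5 of 16 called higher and 0 lower, with a median of 0.54. Cht1 (Os06g0726200), a chitinase, was at 909.6, 1206 and 2299 normalized counts in the libraries labelled GSK2-RNAi, against 44.1 and 143 in the wild type. Cht3 (Os06g0726100), its neighbour and near relative, was at 57.3, 153 and 402 normalized counts in the libraries labelled GSK2-RNAi, against 0.724 and 3.8 in the wild type. Both were higher in every labelled library, and replicate 3 was the highest for both, with rises of 4.08 ± 0.60 (SE, limma adjusted p = 0.0028) and 5.74 ± 0.92 (SE, limma adjusted p = 0.00375); for Cht3 the rise became 3.76 with 10 added before the log. NPR1 (Os01g0194300), the salicylic acid co-regulator, was at 468, 411 and 657 normalized counts in the libraries labelled GSK2-RNAi, against 200.3 and 116 in the wild type, a rise of 1.71 ± 0.29 (SE, limma adjusted p = 0.00488). PBZ1, a pathogenesis-related protein, was not called. Cell death suppressor BI1 (0.81) was called higher, but not without wild type replicate 3 (0.0607).

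Of 6 WRKY transcription factors 4 were called higher and 0 lower, with a median of 1.45. WRKY24 (Os01g0826400) was at 254, 215 and 538 normalized counts in the libraries labelled GSK2-RNAi, against 52.6 and 52.1 in the wild type, a rise of 2.54 ± 0.45 (SE, limma adjusted p = 0.00566). WRKY51 (Os04g0287400) was at 2106, 2227 and 2659 normalized counts in the libraries labelled GSK2-RNAi, against 1189 and 1228 in the wild type, a rise of 0.94 ± 0.14 (SE, limma adjusted p = 0.00257). WRKY71 (Os02g0181300) was at 645, 745 and 769 normalized counts in the libraries labelled GSK2-RNAi, against 185 and 242 in the wild type, a rise of 1.76 ± 0.34 (SE, limma adjusted p = 0.00789) that did not hold without wild type replicate 1 (0.0527). Of 12 receptors, small GTPases and MAP kinases 4 were called higher and 1 lower. MPK5 (Os03g0285800), a kinase of stress and defence signalling, was at 205, 157 and 238 normalized counts in the libraries labelled GSK2-RNAi, against 39.7 and 89.2 in the wild type, a rise of 1.71 ± 0.33 (SE, limma adjusted p = 0.00792), or of 1.14 without wild type replicate 1. RAC1 (Os01g0229400), a small GTPase of immune signalling, was at 54.1, 35.2 and 14.9 normalized counts in the libraries labelled GSK2-RNAi, against 149 and 340.0 in the wild type, a change of -2.84 ± 0.67 (SE, limma adjusted p = 0.0176) that did not hold without wild type replicate 3 (0.105). XB3, a ubiquitin ligase that binds the receptor XA21, rose by 1.26, a call that did not hold without GSK2-RNAi replicate 2 (0.0539) or wild type replicate 1 (0.0878). BWMK1, a MAP kinase, was called at 0.45 and did not hold without any one library (adjusted p between 0.0577 and 0.184). The 4 rises became 1 or 2 without any one library and 7 under equal totals, and the fall became 2 without wild type replicate 1 and 0 without wild type replicate 3.

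Diterpenoid phytoalexins, the antimicrobial compounds of rice leaves, had 2 of 11 genes called higher and 2 lower, with a median of -0.04. The median had no stable sign: it was 0.32 under equal totals, 0.27 without wild type replicate 3, -0.34 with quantile normalization and -1.64 with a filter at 50 normalized counts in place of 10, where 6 were tested and 1 was called higher and 3 lower. With quantile normalization 2 were called higher and 4 lower. CPS4 (Os04g0178300), which makes the first precursor of the momilactones, was at 74.6, 269 and 193 normalized counts in the libraries labelled GSK2-RNAi, against 2.88 and 10.4 in the wild type, a rise of 4.57 ± 0.80 (SE, limma adjusted p = 0.00551). CYP71Z7 (Os02g0570700), a P450 of phytocassane synthesis, was at 33.5, 116 and 34.9 normalized counts in the libraries labelled GSK2-RNAi, against 0.721 and 0 in the wild type. It was at or near 0 in the wild type, and its rise of 5.32 ± 0.74 (SE, limma adjusted p = 0.00218) became 2.60 with 10 added before the log. The synthases KSL5 (Os02g0571300) and KSL6 (Os02g0571800) were called lower, with changes of -1.94 ± 0.56 (SE, limma adjusted p = 0.0364) and -1.76 ± 0.46 (SE, limma adjusted p = 0.0264). KSL5 was at 35.7, 22.4 and 29.5 normalized counts in the libraries labelled GSK2-RNAi, against 74.8 and 169 in the wild type. Its call did not hold without GSK2-RNAi replicate 1 (0.0611), GSK2-RNAi replicate 2 (0.107), GSK2-RNAi replicate 3 (0.08) or wild type replicate 3 (0.205), and that of KSL6 without GSK2-RNAi replicate 2 (0.0837), GSK2-RNAi replicate 3 (0.0774) or wild type replicate 3 (0.145).

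The phenylpropanoid list, whose enzymes supply lignin and flavonoids, had 6 of 13 called higher and 2 lower, with a median of 1.13. 4CL3 (Os02g0177600), a ligase at the branch to lignin, was at 1771, 1585 and 2312 normalized counts in the libraries labelled GSK2-RNAi, against 332 and 311 in the wild type, a rise of 2.53 ± 0.20 (SE, limma adjusted p = 0.000325). CAD2 (Os02g0187800), which makes the lignin alcohols, was at 178, 373 and 339 normalized counts in the libraries labelled GSK2-RNAi, against 13.7 and 31.3 in the wild type, a rise of 3.70 ± 0.45 (SE, limma adjusted p = 0.00137). A further member of that family, CAD3 (Os10g0430200), was at 515, 399 and 612 normalized counts in the libraries labelled GSK2-RNAi, against 3854 and 1427 in the wild type and went the other way, by -2.22 ± 0.50 (SE, limma adjusted p = 0.015). Its call did not hold without GSK2-RNAi replicate 2 (0.0537) or wild type replicate 1 (0.0943). Flavonoid genes CHS1 and CHI were not called, at -0.20 and 0.07. The 6 rises became 3 without GSK2-RNAi replicate 3, and the 2 falls became 1 without any one library.

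Heat shock genes, 16 in all, had 2 called higher and 3 lower, with a median of -0.07 (0.31 under equal totals, with 6 called higher and 1 lower), and the calls fell on transcription factors. HSFA4D (Os05g0530400) was at 230.3, 186 and 357 normalized counts in the libraries labelled GSK2-RNAi, against 44.7 and 54.9 in the wild type, a rise of 2.30 ± 0.31 (SE, limma adjusted p = 0.00194). HSFB1 (Os09g0456800) was at 134, 245 and 288 normalized counts in the libraries labelled GSK2-RNAi, against 58.5 and 29.4 in the wild type, a rise of 2.32 ± 0.42 (SE, limma adjusted p = 0.00624). HSFA2D (Os03g0161900) was at 2058, 1655 and 2081 normalized counts in the libraries labelled GSK2-RNAi, against 5386 and 5289 in the wild type, a change of -1.47 ± 0.15 (SE, limma adjusted p = 0.000823). None of the chaperones tested was called, among them CLPB1, HSP81-1 and HSP81-2. HSFB2C (-0.89) did not hold without GSK2-RNAi replicate 1 (0.0537), wild type replicate 1 (0.125) or wild type replicate 3 (0.0839).

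Flowering time genes had 2 of 20 called higher and 2 lower, with a median of -0.33 (0.06 under equal totals). MADS50 (Os03g0122600), a promoter of flowering, was at 880.4, 1048 and 821 normalized counts in the libraries labelled GSK2-RNAi, against 340.0 and 344 in the wild type, a rise of 1.41 ± 0.17 (SE, limma adjusted p = 0.00129). MADS18 (Os07g0605200) was at 1891, 997 and 1688 normalized counts in the libraries labelled GSK2-RNAi, against 3708 and 3336 in the wild type, a change of -1.26 ± 0.26 (SE, limma adjusted p = 0.0109) that did not hold without wild type replicate 1 (0.0607). MADS14 (-0.85) did not hold without GSK2-RNAi replicate 2 (0.0796), GSK2-RNAi replicate 3 (0.0589) or wild type replicate 1 (0.161), and Ehd4 (0.69) without GSK2-RNAi replicate 1 (0.057), GSK2-RNAi replicate 2 (0.0826) or wild type replicate 3 (0.128), with a change of 0.40 in the last case. The florigen Hd3a was not called, at -1.73. Of 8 clock genes only PRR37 was called (-0.59, limma adjusted p = 0.033), and it did not hold without any one library (adjusted p between 0.0606 and 0.147).

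The cell wall, aquaporin and autophagy lists had 0 or 1 call each. None of 22 cell wall genes, expansins, cellulose synthases and a xyloglucan enzyme among them, was called, with fold changes from -2.82 to 2.08 and a median of -0.22; 1 was called higher under equal totals and 1 lower with quantile normalization. Of 15 aquaporins 1 was called lower, TIP3-1 (-1.57), and it did not hold without GSK2-RNAi replicate 2 (0.065), GSK2-RNAi replicate 3 (0.0776), wild type replicate 1 (0.165) or wild type replicate 3 (0.0696). Of 5 autophagy genes 1 was called higher, ATG8A (0.59), and it did not hold without GSK2-RNAi replicate 2 (0.0511) or wild type replicate 3 (0.0673).

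The largest changes over all loci fell on loci with no checked name. Os03g0115800 was at 2199.6, 2369 and 2578 normalized counts in the libraries labelled GSK2-RNAi and was listed at 0 in both wild type libraries (limma adjusted p = 2.51e-07). Under the label GSK2-RNAi oswrky53 it was at 2875, 1708 and 2636, so all 6 libraries with the construct label stood apart from the wild type. Os08g0410900 was at 761, 586 and 682 normalized counts in the libraries labelled GSK2-RNAi, against 1.44 and 0 in the wild type (limma adjusted p = 2.03e-05), with 1260.1, 1636 and 1323 under the label GSK2-RNAi oswrky53. Among the falls, Os04g0641101 was at 10.6, 9.99 and 5.33 normalized counts in the libraries labelled GSK2-RNAi, against 207 and 1129.7 in the wild type, a change of -5.70 ± 0.73 (SE, limma adjusted p = 0.00171), and Os04g0174100 was at 0, 0 and 5.35 normalized counts in the libraries labelled GSK2-RNAi, against 72.4 and 59.5 in the wild type, a change of -5.17 ± 0.89 (SE, limma adjusted p = 0.0051). These 4 calls held without each library in turn.

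The changed loci were spread over the genome. Between 23.0% (chromosome 12) and 27.2% (chromosome 10) of the tested loci of a chromosome were called, with the largest share called higher on chromosome 11 (16.5%) and the smallest on chromosome 12 (10.8%). In 500 windows of 50 consecutive tested loci, the number called higher had a median of 6 and a range from 0 to 18, and the number called lower a median of 6 and a range from 0 to 14. Neighbouring loci called in the same direction formed 15 runs of at least 5 loci for rises and 1 for falls, the longest with 7 loci, 1 on chromosome 9 and 1 on chromosome 10. Neighbours can be tandem copies that share reads.

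Few loci with several transcript rows had rows called in opposite directions. How often a change was confined to 1 row was not counted. Of 4259 loci with more than 1 tested transcript row, 393 had at least 2 rows called in the same direction and no row called in the other, and 17 had rows called in both directions when rows were tested singly.

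The libraries labelled GSK2-RNAi were somewhat closer to each other than replicates of the other groups. Pearson's r was taken on the log2 values across loci, which are not independent replicates. It was between 0.964 and 0.969 among the libraries labelled GSK2-RNAi and 0.959 between the wild type libraries. Libraries labelled GSK2-RNAi oswrky53 had r between 0.946 and 0.960. Across the GSK2-RNAi and wild type groups r was between 0.883 and 0.912. At 19086 loci with a mean of at least 50 normalized counts, the median SD of the log2 values was 0.16 in the libraries labelled GSK2-RNAi (n = 3) and 0.20 in the wild type (n = 2). The labelled libraries differed in degree. Replicate 1 held the highest of the 3 values at 18.4% of the loci called higher, replicate 2 at 40.1% and replicate 3 at 41.5%, whereas over all loci the shares were 31.0%, 32.0% and 37.0%. At the loci called lower, replicate 2 was the highest of the 3 at 12.5%, replicate 1 at 41.4% and replicate 3 at 46.1%.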

How the data were processed

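Messenger RNA of rice flag leaves was measured in 8 libraries; 5 are compared here and the other 3 share in the estimate of spread. The values are those the authors deposited: normalized counts for 38335 transcript rows, treated here as a signal because they are not whole numbers. Tools listed in the submitters' processing notes are DESeq2 1.26.0 and kallisto 0.46.1, with IRGSP-1.0 as the build; how the counts were normalized, and with which annotation, is not given in the sources used here. In the low range, values lay within 0.1 of a whole multiple of 1 step in between 70.1% and 98.8% of cases, so whole reads were not recovered and the depth is unknown. No count model was run, and no counting intervals are given.

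Rows were summed per locus by identifier, and loci with at least 10 in at least 2 of the 8 libraries were tested as log2(value + 1), which understates changes of low loci. Group means of the 3 genotypes were fitted with limma 3.58.1 (R 4.3.3, eBayes, trend by mean level), and the threshold was a p of 0.05 after Benjamini-Hochberg adjustment over all loci. On data simulated for this comparison with 25325 loci, 30.0% of 100 loci changed 2-fold and 72.0% of 100 changed 4-fold were called, and 3 of 25125 unchanged ones. Far fewer loci were changed there than were called in the data, which makes the adjusted threshold stricter. These shares are therefore not the power of the comparison itself. Tables and figures used Python 3.11.15 with pandas 2.3.3, numpy 2.4.6 and matplotlib 3.10.9.

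The table holds identifiers without names. Names were paired with identifiers by hand, and of 630 pairs 551 passed a check of symbol, chromosome and order (within 1 Mb) against a RefSeq table of assembly ASM3414082v1; of these, with WRKY53, 484 were tested, 15 of them cell type markers. The order check cannot tell neighbouring relatives apart. The builds differ, so no coordinates are given, and no sequence is printed. The planned search of promoters for motifs was not run.

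The lists and their members were chosen with earlier results of these data known. Named genes are GSK2 and WRKY53, the 12 largest called rises and 12 largest called falls among checked names whose groups do not overlap and whose higher mean is at least 50, up to 4 called members of each list by adjusted p, members of short families, and the 2 largest rises and 2 largest falls over all loci. A few list members are counted with their lists but not reported here by name. Other genes are named to complete a count or a family and were chosen after their values were seen. Alternatives changed the scaling, the value added before logs, the filter, the libraries in the fit, the trend, the unit tested (transcript rows) and a replicate block.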

Additional observations from a re-analysis of the deposited data

How the results depend on the processing

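The count of 6290 called loci stayed between 5508 and 6355 under quantile normalization, median-of-ratios scaling, 0.5 or 10 added before the log, no filter, a filter within the 5 libraries, a filter at 50, a fit on the 5 libraries only, a fit with no intensity trend, and transcript rows tested singly. Under equal totals it was 9478, with 8014 higher and 1464 lower. Without each of the 5 libraries in turn it lay between 3677 (without GSK2-RNAi replicate 2; 3704 without wild type replicate 1) and 4705, with 2005 to 2539 higher and 1647 to 2166 lower; these fits have fewer samples, and where 1 wild type library remained it was assumed to vary like the other groups. Chromosome shares differed by 4.19 percentage points, and by 5.53 under equal totals and 4.23 with quantile normalization.

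Replicate numbers give no pairing in the labels. Deviations from the group means were correlated across loci between the libraries labelled GSK2-RNAi and the wild type. For libraries with the same number, 1 or 3, r was -0.20 and -0.21. With 2 wild type libraries the deviations of 1 mirror those of the other. These correlations therefore cannot decide whether libraries with the same number share a batch or harvest. With the number as a replicate block 3894 loci were called, 2140 higher and 1754 lower, of which 3836 were among the 6290.

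Of 103 named called genes 64 kept their call without each library in turn and 39 lost it without at least 1; none changed direction in any alternative run. Equal totals ended 15 of these calls, quantile normalization 15, a fit with no intensity trend 15 and the block 27. The depth is unknown, and the groups held 3 libraries against 2. The test called few of the simulated 2-fold changes, but the simulation changed far fewer loci than were called here. The signal at the target's locus did not bear out its label. No call can therefore be read as an effect of less GSK2.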
